A study of Drosophila melanogaster with 9 samples.

Results

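The vacuolar ATPase (V-ATPase) genes and 4 lysosomal genes are described here in male fly muscle that overexpressed Foxo or Mnt. The members are all genes whose annotated symbol begins with Vha, plus Lamp1, CtsL1, CtsB and Mitf, each represented by the probe set with the highest mean signal. They number 35 of the 11982 genes measured, of which 31 are Vha genes. The rule names genes by symbol, and the probe set by its mean over all arrays. Of the A subunit genes, Vha68-3 is among the members, while Vha68-1 and Vha68-2 were not analysed here.

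The V-ATPase is a rotary proton pump. Its V1 sector, in the cytosol, hydrolyses ATP, and its V0 sector carries protons across a membrane. It acidifies lysosomes and endosomes in every cell, loads synaptic vesicles, and works in the plasma membrane of acid- or ion-transporting epithelia such as the gut and the Malpighian tubules. Flies carry several genes for most subunits, 1 of them usually in general use and others expressed in few tissues such as the testis. Cathepsins are lysosomal proteases that need the acid this pump makes. Mitf, the fly member of the MiT/TFE factors, activates V-ATPase and lysosomal genes and is held in the cytosol by TORC1 activity.

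The study hybridised RNA from skeletal muscle of adult male Drosophila melanogaster to Affymetrix Drosophila Genome 2.0 arrays, with 3 biological replicates in each of 3 groups. The Foxo group (UAS-Foxo) overexpressed Foxo, the transcription factor that insulin signalling restrains, and the Mnt group (UAS-Mnt) overexpressed Mnt, a repressor that pairs with Max and opposes Myc. The third group held control flies. All groups were reared alike as newly eclosed adults, RNA came from at least 15 flies per group, and the series title calls the overexpression muscle-specific, while the labels give neither the driver nor the control genotype nor the age at extraction. Values below are RMA signals in log2 units, where a difference of 1 is a doubling, and they compare arrays for 1 probe set, never 1 gene with another.

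The arrays were examined first. The foxo signal was 11.95, 9.52 and 10.22 in Foxo replicates 1, 2 and 3, against 9.42, 9.50 and 9.05 in the controls. The array labelled Foxo 2 thus lay only just above the highest control. The Mnt signal was 9.85, 11.69 and 11.71 in Mnt replicates 1, 2 and 3, against 8.41, 8.57 and 8.45 in the controls. The 19 sarcomere genes measured averaged between 13.08 and 13.51 in every array, which fits the labelled tissue. Transcripts of other male tissues were present too. A testis score, the mean signal of 22 testis genes, ran from 6.72 to 7.69 in Foxo, from 4.83 to 7.19 in Mnt and from 4.84 to 6.76 in control arrays. Accessory gland genes averaged 9.13 in the third Foxo array and at most 5.37 in any other. The gut score, the mean of 13 digestive enzyme genes, was 9.99 to 10.37 in Foxo, 8.86 to 9.85 in Mnt and 9.19 to 9.91 in control arrays. In such bulk samples, fewer cells of a type and less RNA per cell cannot be told apart.

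The members fall into 3 sets. The core set holds 14 subunit genes, mostly those in general use but also the neuronal Vha100-1, the alternative set holds the 17 further copies, and Lamp1, CtsL1, CtsB and Mitf form the third. Replicates of the core genes lay close together, with a median residual SD of 0.06 around the group means on the log2 scale, against 0.14 over all genes. VhaSFD had the smallest of the core, at 0.03, and Vha100-2 had 0.11. The alternative genes had a median residual SD of 0.18, and that of Vha68-3 was 1.32.

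Foxo versus control asked what Foxo overexpression does to these transcripts. No member passed the threshold, an adjusted p under 0.05 over all genes in limma. The core pump genes differed little from the controls, with a median log2 fold change of 0.02 and a range of -0.13 to 0.17. The median over all genes was -0.06. In the deposited values, the 95% confidence interval of each of the 14 core genes lay within 1.25-fold of no change in either direction. Those of 31.5% of all genes did so too. Wider differences belonged to alternative subunits, led by Vha68-3 at 2.22 ± 0.93 (SE, n = 3 per group, limma adjusted p = 0.279). When each array was centred on its median, the bound did not hold for every core gene. The 95% intervals of Vha100-1 (-0.23 ± 0.09) and Vha100-2 (-0.12 ± 0.10) in Foxo versus control then reached past 1.25-fold.

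Over all genes, 12 passed the threshold (0.1%). An unadjusted limma p under 0.05 was found for 6 of the 35 members, all higher in the Foxo arrays, or 17.1%. The same held for 17.8% of all genes, 8.31% higher and 9.51% lower. The groups did not overlap for 9 members, 7 of them higher and 2 lower, or 25.7%, against 23.6% of all genes (8.24% higher and 15.4% lower). Both total shares of the members lay near those of all genes.

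Among the V1 subunits, VhaSFD stood out. It encodes subunit H, a regulatory subunit that governs the coupling of V1 to V0. Its signal was 12.43, 12.40 and 12.37 in the Foxo arrays, against 12.26, 12.25 and 12.20 in the controls. Each Foxo array, including the one labelled Foxo 2, lay above each control. The log2 fold change was 0.17 ± 0.04, or 1.12-fold (95% interval 1.05 to 1.20, limma adjusted p = 0.270). It was 0.06 when each array was centred on its median and 0.16 when the fit included the testis score, and its adjusted p lay between 0.112 and 0.770 over 19 alternatives. Vha44, subunit C, which in yeast leaves the complex when it comes apart, had signals of 11.82, 11.80 and 11.79 in the Foxo arrays, against 11.78, 11.65 and 11.77 in the controls. These groups did not overlap either, but the gap between them was small, and the log2 fold change was 0.07 ± 0.06.

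Subunit B and the stator subunits E and G did not separate the groups. Vha55, subunit B, which shares the nucleotide sites with subunit A, lay at 12.52, 12.45 and 12.39 in the Foxo arrays, against 12.41, 12.39 and 12.28 in the controls. The log2 fold change of Vha55 was 0.09 ± 0.06. Vha26, the stator subunit E, lay at 12.87, 13.00 and 12.94 in the Foxo arrays, against 12.89, 12.98 and 12.80 in the controls. Vha13, its partner subunit G, lay at 12.84, 12.90 and 12.85 in the Foxo arrays, against 12.82, 12.85 and 12.87 in the controls. The groups overlapped for these 3 genes. The central rotor subunit D, Vha36-1, had a log2 fold change of -0.01 ± 0.07, from 11.66, 11.75 and 11.57 in the Foxo arrays against 11.59, 11.74 and 11.69 in the controls. The rotor subunit F, Vha14-1, had 0.00 ± 0.06, from 11.72, 11.77 and 11.63 in the Foxo arrays against 11.64, 11.71 and 11.76 in the controls. Both rotor genes overlapped between the groups.

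In the V0 sector, VhaAC39-1 and Vha100-1 separated the groups, in opposite directions. VhaAC39-1, subunit d, which links the rotor to the proton-carrying ring, lay at 11.43, 11.36 and 11.36 in the Foxo arrays, against 11.23, 11.28 and 11.31 in the controls. It had a log2 fold change of 0.11 ± 0.05 (limma adjusted p = 0.301). Vha100-1, a subunit a known for its work in neurons, lay at 9.75, 9.62 and 9.78 in the Foxo arrays, against 9.85, 9.85 and 9.83 in the controls. Its log2 fold change was -0.13 ± 0.05 (limma adjusted p = 0.279). VhaAC45RP, a neuronal relative of the accessory subunit VhaAC45, was low in the same arrays, at 9.50, 9.37 and 9.40 in Foxo against 9.53, 9.52 and 9.78 in the controls. Its log2 fold change was -0.19 ± 0.08 (limma adjusted p = 0.284), and the groups did not overlap. Of the 9 neuronal markers measured, 1 had a higher mean in the Foxo arrays and 8 a lower one. The neuronal score was 7.93 to 8.15 in Foxo and 7.81 to 8.19 in Mnt, against 8.25 to 8.28 in control arrays. In Mnt versus control, where 1 of the 9 markers was also higher, Vha100-1 had a log2 fold change of 0.02 ± 0.05 and VhaAC45RP one of 0.07 ± 0.08. When the fit included the testis score, Foxo versus control gave -0.09 ± 0.07 for Vha100-1 and -0.08 ± 0.09 for VhaAC45RP. The part of neuronal or testis tissue in the values of these genes was not tested.

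The ring and membrane subunits of V0 overlapped between Foxo and control. Vha16-1, the subunit c of the ring, lay at 13.53, 13.56 and 13.65 in the Foxo arrays, against 13.60, 13.55 and 13.56 in the controls. VhaPPA1-1, subunit c'', lay at 11.76, 11.85 and 11.74 in the Foxo arrays, against 11.68, 11.83 and 11.74 in the controls. VhaM9.7-b, the small subunit e, lay at 12.02, 12.25 and 12.03 in the Foxo arrays, against 12.05, 12.14 and 12.09 in the controls. Its highest value came from the array labelled Foxo 2, without which its log2 fold change was -0.07 in place of 0.01. Vha100-2, another subunit a, had the largest residual SD of the core, at 11.50, 11.35 and 11.65 in the Foxo arrays against 11.61, 11.51 and 11.42 in the controls. VhaAC45, the glycoprotein that assists assembly, lay at 12.46, 12.55 and 12.50 in the Foxo arrays, against 12.51, 12.46 and 12.45 in the controls.

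**Figure D1:**
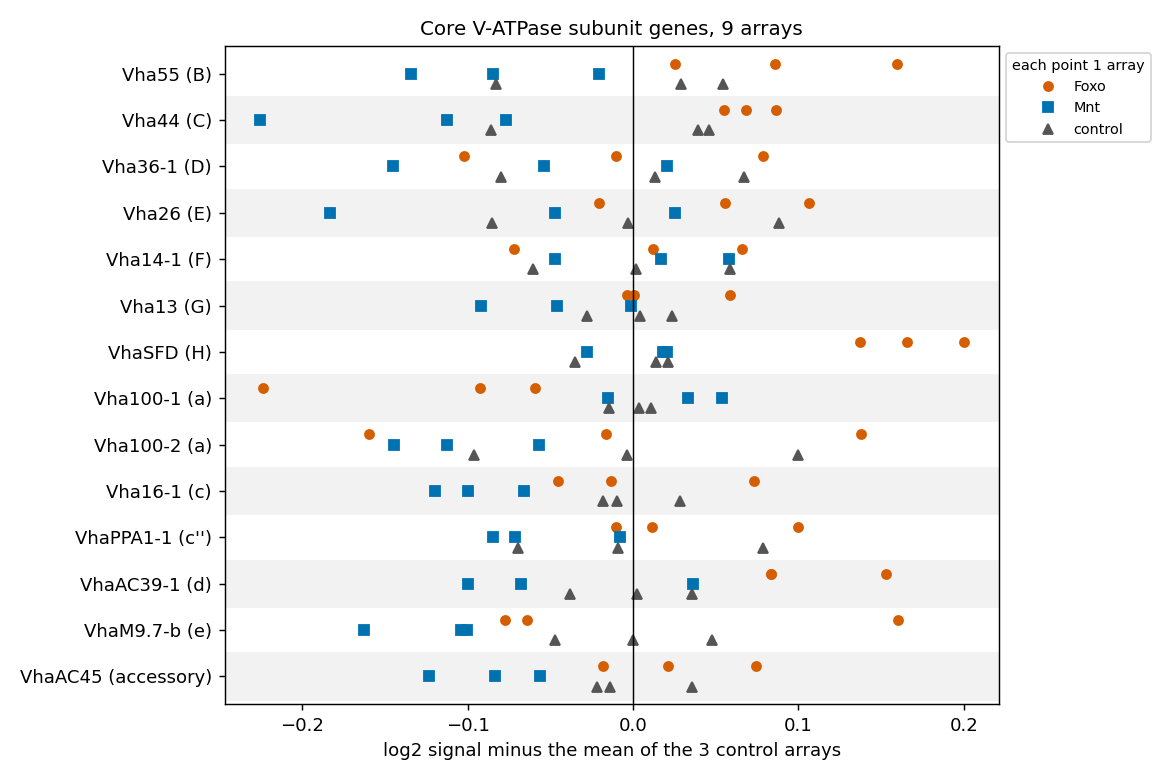
Signal of each of the 14 core subunit genes in the 9 arrays, as the log2 difference from the mean of the 3 controls; the letter beside each gene is its subunit, and each point is 1 array. The 3 Foxo points of VhaSFD lie right of all others, the 3 Foxo points of Vha100-1 lie left of the other 6, and the Mnt points of Vha16-1, VhaM9.7-b and VhaAC45 lie left of all others.

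Arrays were also centred on their medians, since the array medians were not equal over the genes. This step moved Foxo versus control by 0.10 on the log2 scale for all genes alike. After it the core median was -0.08 with 2 of 14 genes higher, where 11 of 14 were higher in the deposited values. The median over all genes was then -0.16. Because every gene moves by the same amount, the distance of the core median from that of all genes is the same in both scalings by construction, while the sign of the small core differences is not. Medians over all probe sets, from 5.70 in control replicate 3 to 5.95 in Foxo replicate 2, ordered the arrays nearly as the testis score did. Only control replicate 3 and Mnt replicate 2 changed places. The part of testis transcripts in the shift by centring was not tested.

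The alternative subunits gave the widest differences. Their median log2 fold change in Foxo versus control was 0.17, with 12 of 17 higher. Vha68-3, the third A subunit gene, lay at 6.18, 7.68 and 6.95 in the Foxo arrays, against 6.09, 4.45 and 3.61 in the controls. Vha36-2, a second D subunit gene, lay at 5.20, 6.19 and 5.71 in the Foxo arrays, against 5.07, 4.55 and 4.73 in the controls. Vha14-2, a second F subunit gene, lay at 4.53, 4.82 and 4.87 in the Foxo arrays, against 4.44, 4.0035 and 4.28 in the controls. None of these 3 groups of Foxo arrays overlapped the controls, although Foxo replicate 1 lay only just above control replicate 1 in each. The log2 fold changes of Vha36-2 and Vha14-2 were 0.92 ± 0.33 and 0.49 ± 0.17 (both limma adjusted p = 0.276).

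These genes followed the testis score from array to array, within groups as well as between them. For Vha36-2 and Vha14-2 the order within groups was not strict. Testis markers were higher in the mean of the Foxo arrays than in the controls for 20 of 22 genes, and aly, comr and can of that list lay under the lower quartile of every array. Over the 9 arrays the Pearson correlation of Vha68-3 with the testis score was 0.992 and Spearman's rho 0.950 (exact permutation p = 2.2e-05 and 0.000353, Benjamini-Hochberg adjusted 0.000772 and 0.00411 over 35 members). Leaving out control replicate 3 and Mnt replicate 2, the arrays farthest from the median score, gave 0.990, and the deviations from the group means correlated at 0.993. The permutations shuffled all 9 arrays regardless of group, so their p takes in differences between groups too. The correlations within groups were not tested. For Vha36-2, Vha14-2 and VhaM9.7-d, r was 0.892, 0.850 and 0.880 and rho was 0.933, 0.917 and 0.983. The exact permutation p of r was 0.00163, 0.00457 and 0.00112 (adjusted 0.0191, 0.0400 and 0.0191) and that of rho 0.00075, 0.00131 and 4.96e-05 (adjusted 0.00656, 0.00918 and 0.00174). Without the same pair of arrays r was 0.980, 0.959 and 0.897, and within groups it was 0.817, 0.737 and 0.829. None of the 14 core genes reached an adjusted p under 0.05 for r in this family, where their r ran from -0.657 to 0.623. By rho alone 3 further members did, Vha100-3 (0.967), Lamp1 (0.900) and Vha16-4 (-0.850), with exact permutation p of 0.000165, 0.00203 and 0.00607 (adjusted 0.00289, 0.0118 and 0.0304) and r of 0.726, 0.738 and -0.727.

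With the testis score in the fit, the log2 fold change of Vha68-3 in Foxo versus control was 0.18 ± 0.17, that of Vha36-2 0.33 ± 0.26 and that of Vha14-2 0.24 ± 0.16. Vha100-3, a further subunit a gene, lay at 4.95, 5.57 and 6.11 in the Foxo arrays, against 5.04, 4.85 and 4.89 in the controls. Its highest value fell in Foxo replicate 3, the array with the high accessory gland score. The ring subunit gene Vha16-5 lay at 5.92, 6.31 and 6.38 in the Foxo arrays, against 5.76, 6.01 and 5.73 in the controls, and the groups overlapped. Its log2 fold change was 0.37 ± 0.15 (limma adjusted p = 0.277) and 0.31 with the testis score in the fit.

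**Figure D2:**
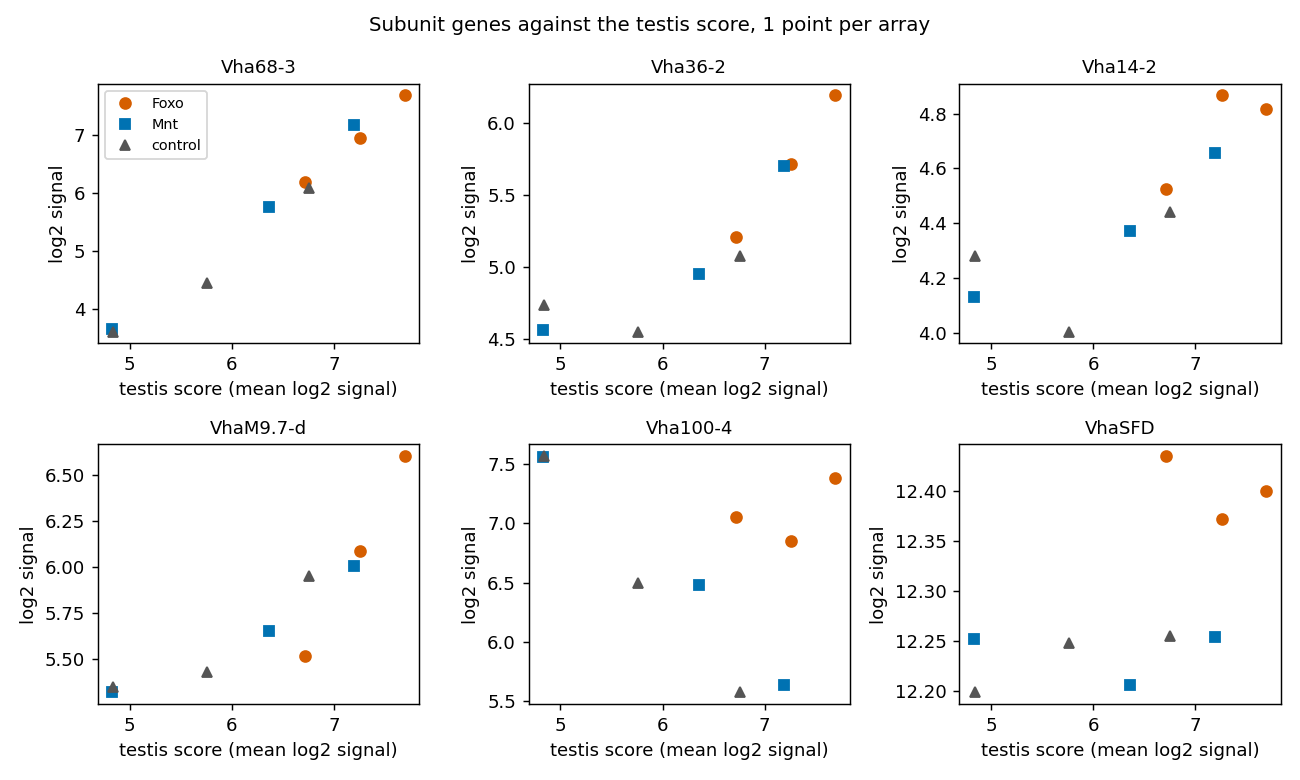
Signal of 6 subunit genes (log2, vertical axes, each with its own range) against the testis score of the array (mean log2 signal of 22 testis genes, horizontal axes), 1 point per array. Vha68-3 and VhaM9.7-d run up with the score in all 3 groups, and Vha100-4 does not. Vha36-2 and Vha14-2 also run up, except that control replicate 3 lies above control replicate 2 at a lower score. For Vha14-2, Foxo replicate 3 also lies just above Foxo replicate 2. VhaSFD is set apart by group, with the 3 Foxo points between 12.37 and 12.43. Of these, Foxo replicate 1 lies at a score of 6.72, which a control (6.76) and an Mnt array (7.19) also reach. Foxo replicates 2 and 3, at 7.69 and 7.26, lie at higher scores than every control and Mnt array.

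Other alternative subunits varied widely within groups. Vha100-4, known from the acid-secreting cells of the midgut, lay at 7.05, 7.38 and 6.85 in Foxo, 6.48, 7.56 and 5.64 in Mnt and 5.57, 6.50 and 7.57 in control arrays. The controls held both the lowest and the highest of the 9 arrays, 1.99 apart on the log2 scale, and the Foxo arrays fell between them. Within groups Vha100-4 ran against the testis score, with a correlation of -0.892 between deviations from the group means, against -0.427 over the 9 arrays. Its log2 fold change in Foxo versus control was 0.55 ± 0.57 (limma adjusted p = 0.602), and 1.68 ± 0.34 (adjusted p = 0.332) when the fit included that score. In Foxo versus Mnt it was 0.54 ± 0.57 (limma adjusted p = 0.648), and 1.39 ± 0.32 (adjusted p = 0.278) with the score. In the RefSeq gene order Vha100-4 is the immediate neighbour of Vha100-2 on arm 3R, whose 9 values spanned 0.30. Vha100-5 lay at 7.39, 9.13 and 8.41 in the Foxo arrays, against 7.72, 7.70 and 7.92 in the controls, so that Foxo replicate 1 was the lowest and Foxo replicate 2 the highest of the 6. Vha36-3 lay between 8.61 and 9.06 in all 9 arrays, with a log2 fold change of 0.03 ± 0.13.

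Several ring and stalk copies were near the floor of the arrays. Vha16-2, Vha16-3, Vha14-2 and VhaPPA1-2 lay under the array's lower quartile in 2, 5, 3 and 3 of the 9 arrays. Vha68-3 did so in 2, control replicate 3 and Mnt replicate 2. VhaAC39-2 and Vha16-4 stayed between 4.88 and 5.30 and between 5.19 and 5.54. A filter on the dimmest 40% of genes left 24 of the 35 members, among them all 14 core genes and 6 of the 17 alternative ones. Over those 6 the median log2 fold change in Foxo versus control was 0.01. It was 0.15 without the array labelled Foxo 2 and 0.05 without Foxo replicate 3 over all 17, and 0 of the 17 had an unadjusted limma p under 0.05 in either case. Without Foxo replicate 1 it was 0.30, and 8 of the 17 had such a p, 7 of them higher. The shares of all genes with such a p in these refits are not given here, so the counts are not set against a background.

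**Figure D3:**
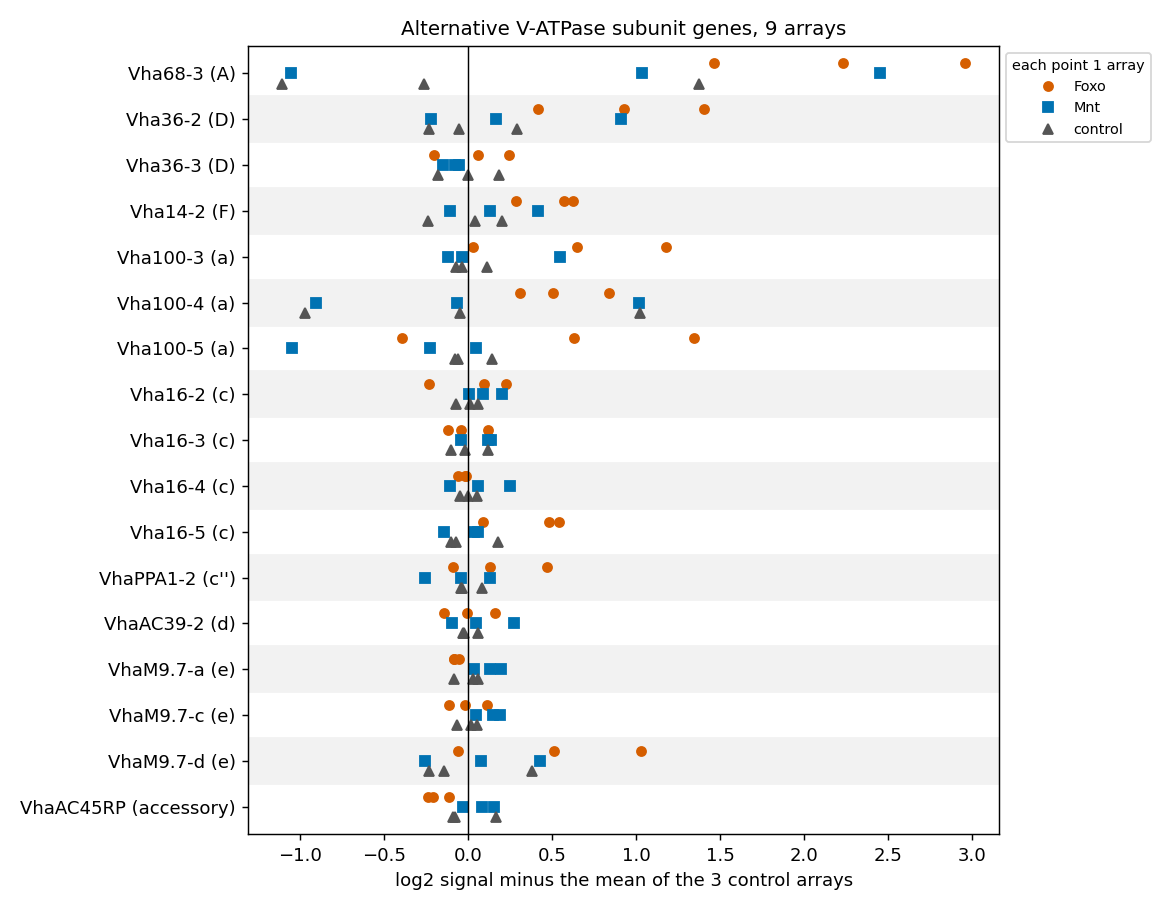
Signal of each of the 17 alternative subunit genes in the 9 arrays, as the log2 difference from the mean of the 3 controls, with each point 1 array. Vha68-3 spans the widest range, with 4.07 between its lowest and highest array, followed by Vha100-5 with 2.40 and Vha100-4 with 1.99, while Vha16-3, VhaM9.7-a and VhaM9.7-c span between 0.26 and 0.30.

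Of the lysosomal members, CtsB was the one that separated the Foxo arrays from the controls. CtsB, the cathepsin B protease, lay at 12.36, 12.51 and 12.44 in the Foxo arrays, against 12.32, 12.33 and 12.17 in the controls. Its log2 fold change was 0.16 ± 0.06, or 1.12-fold (95% interval 1.01 to 1.24, limma adjusted p = 0.276). It was 0.06 after centring and 0.11 ± 0.08 with the testis score in the fit. CtsL1, the cathepsin L protease, lay at 13.20, 13.04 and 13.33 in the Foxo arrays, against 13.30, 12.98 and 13.02 in the controls. Lamp1, an abundant glycoprotein of the lysosomal membrane, lay at 12.87, 13.00 and 13.01 in the Foxo arrays, against 12.98, 12.96 and 12.87 in the controls. For these genes the groups overlapped, and Lamp1 spanned only 0.14 over all 9 arrays. Mitf lay at 6.16, 6.67 and 6.49 in the Foxo arrays, against 6.60, 6.55 and 6.79 in the controls. The log2 fold change of Mitf was -0.21 ± 0.15, with a 95% interval of -0.56 to 0.14. Gut digestive enzyme genes were higher in the Foxo arrays than in the controls for 12 of 13 genes, with the ranges given above, and their part in the CtsB and VhaSFD values was not tested.

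**Figure D4:**
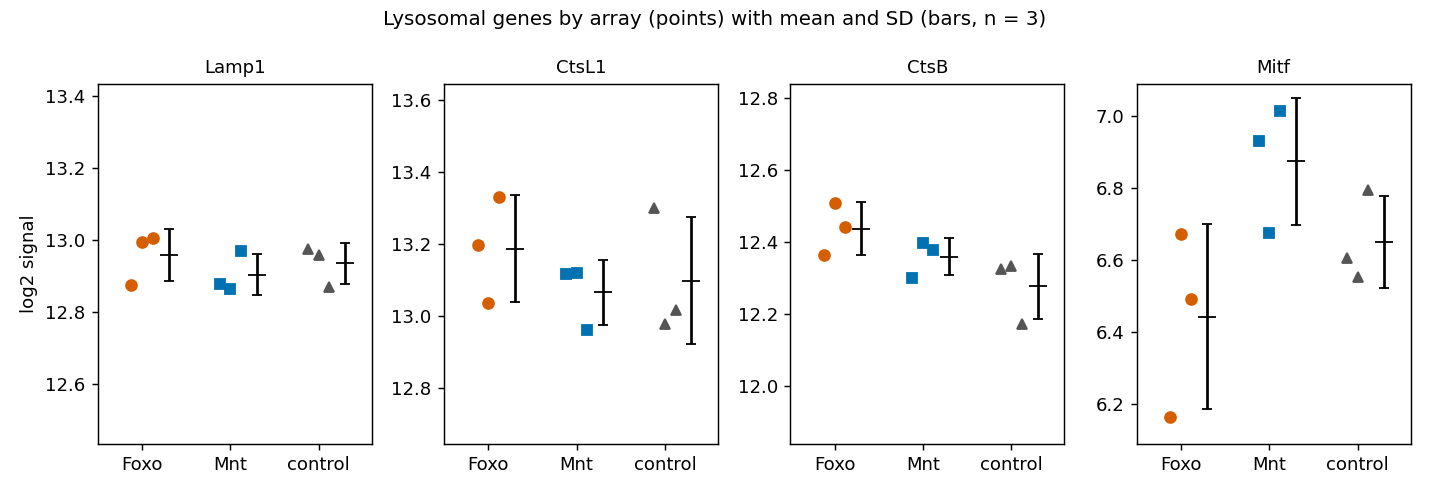
Log2 signal of Lamp1, CtsL1, CtsB and Mitf in each array (points), with the group mean and SD beside them (bars, n = 3 per group); all panels span 1 on the log2 scale. The Foxo points of CtsB lie above its controls, and the Mnt points of Mitf lie above its Foxo points, while the groups of Lamp1 and CtsL1 overlap.

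The next comparison set the Mnt arrays against the controls. Limma called 0 of the 35 members and 0 of all genes (0%) at an adjusted p under 0.05. Of the 14 core pump genes 11 were lower under Mnt, with a median log2 fold change of -0.06, where the median over all genes was 0.00. The range of the core was -0.14 to 0.02, and the 95% interval of each core gene again lay within 1.25-fold in the deposited values. After centring, all 14 were lower with a median of -0.11, against -0.04 over all genes. The 95% intervals of Vha44 (-0.18 ± 0.09), Vha100-2 (-0.15 ± 0.10) and, by a narrow margin, Vha55 (-0.12 ± 0.09) then reached past 1.25-fold. Without Mnt replicate 1, the array with the least Mnt, the core median was -0.04, against -0.01 over all genes. No core gene then had an unadjusted limma p under 0.05, and the share of all genes in that refit is not given here. This comparison and Foxo versus control share their 3 control arrays.

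An unadjusted limma p under 0.05 was found for 1 member, or 2.86%, against 3.54% of all genes (1.58% higher and 1.96% lower). It was Vha44, at 11.62, 11.66 and 11.51 in the Mnt arrays, against 11.78, 11.65 and 11.77 in the controls. The groups overlapped by a narrow margin, and the log2 fold change was -0.14 ± 0.06 (limma adjusted p = 0.999). The groups did not overlap for 3 members, all lower, or 8.57%, against 8.91% of all genes (3.67% higher and 5.24% lower). These were Vha16-1, VhaM9.7-b and VhaAC45. Vha16-1 lay at 13.51, 13.47 and 13.45 in the Mnt arrays, against 13.60, 13.55 and 13.56 in the controls, with a log2 fold change of -0.09 ± 0.05. VhaM9.7-b lay at 11.99, 11.99 and 11.93 in the Mnt arrays (-0.12 ± 0.07), and VhaAC45 at 12.42, 12.35 and 12.39 (-0.09 ± 0.05), both set against the control values given above.

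The other core genes overlapped between Mnt and control. Vha55 lay at 12.23, 12.34 and 12.28 in the Mnt arrays, and VhaSFD, at 12.21, 12.25 and 12.25, had a log2 fold change of 0.00 ± 0.04. Vha26, Vha13 and Vha36-1 each had Mnt replicate 1 as the lowest of the 9 arrays, at 12.70, 12.75 and 11.53. Vha14-1 lay at 11.66, 11.76 and 11.72, and VhaPPA1-1 at 11.68, 11.66 and 11.74. In that array 1 of the 14 core genes was above the control mean, and in Mnt replicates 2 and 3 it was 4 of 14 each.

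Alternative subunits had a median log2 fold change of 0.07 in Mnt versus control, with 13 of 17 higher and none with groups that did not overlap. Vha68-3 lay at 5.76, 3.66 and 7.17 in the Mnt arrays, the order of their testis scores of 6.36, 4.83 and 7.19. VhaM9.7-a and VhaM9.7-c, further subunit e genes, had 0.12 ± 0.06 and 0.13 ± 0.07. Of the lysosomal members, Lamp1 lay at 12.88, 12.86 and 12.97 in the Mnt arrays, CtsL1 at 13.12, 13.12 and 12.96, and CtsB at 12.30, 12.40 and 12.38. Their log2 fold changes were -0.03 ± 0.06, -0.03 ± 0.11 and 0.08 ± 0.06. Mitf lay at 6.93, 6.68 and 7.01 in the Mnt arrays, with a log2 fold change of 0.22 ± 0.15 and a 95% interval of -0.13 to 0.58.

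Foxo versus Mnt compared both overexpression groups, which also tests whether their effects differ, since the controls cancel. Again no member passed the threshold, which 16 genes did over all (0.134%). The core genes were higher in the Foxo than in the Mnt arrays for 12 of 14, with a median log2 fold change of 0.11 against -0.04 over all genes. An unadjusted limma p under 0.05 was found for 6 core genes, of which 5 were higher, and for 10 of the 35 members, or 28.6%, against 13.4% of all genes (3.98% higher and 9.4% lower). The groups did not overlap for 12 members, or 34.3%, against 18.1% of all genes. Of these 8 were higher, where 4.3% of all genes were, and 4 lower, where 13.8% were. Markers of epithelia rich in V-ATPase separated the same groups. Gut genes were higher in Foxo for 13 of 13, and their score was 9.99 to 10.37 in Foxo against 8.86 to 9.85 in Mnt arrays. Malpighian tubule genes were higher in Foxo for 7 of 9, and their score was 7.40 to 7.73 in Foxo against 6.87 to 7.33 in Mnt and 6.75 to 7.46 in control arrays. The part of these tissues in the core differences was not tested.

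The core genes with such a p were spread over the complex. Vha44 had 0.21 ± 0.06 (limma adjusted p = 0.228), VhaSFD 0.16 ± 0.04 (adjusted p = 0.215) and Vha55 0.17 ± 0.06 (adjusted p = 0.298) in V1. VhaAC39-1, at 11.17, 11.31 and 11.21 in the Mnt arrays, had 0.15 ± 0.05 (limma adjusted p = 0.293), and VhaAC45 had 0.11 ± 0.05 (adjusted p = 0.350). Vha100-1 went the other way, at 9.88, 9.90 and 9.83 in the Mnt arrays, with -0.15 ± 0.05 (limma adjusted p = 0.314). The largest core difference, that of Vha44, was 1.16-fold with a 95% interval of 1.05 to 1.27. In the deposited values Vha44 was the only core gene in this comparison whose interval reached past 1.25-fold. For Vha44 the Foxo values of 11.79 to 11.82 lay above the controls and the Mnt values of 11.51 to 11.66 mostly below them.

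Scaling bore on this comparison as well. After centring, the core median was 0.05 with 11 of 14 higher and 1 of 14, lower in Foxo, at an unadjusted limma p under 0.05, and the median over all genes was -0.10. When the fit included the testis score, the core median was 0.08 with 13 of 14 higher. Without Mnt replicate 1 it was 0.12 and 3 core genes had such a p, in place of 6, and without Foxo replicate 2 it was 0.09 with 4. How many of all genes had such a p after centring or in these refits is not given here.

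Members lower in Foxo than in Mnt were mostly not core genes. VhaM9.7-a lay at 8.88, 8.85 and 8.85 in the Foxo arrays, against 9.12, 9.06 and 8.96 in the Mnt arrays (-0.19 ± 0.06, limma adjusted p = 0.283). VhaAC45RP lay at 9.50, 9.37 and 9.40 in the Foxo arrays, against 9.77, 9.69 and 9.58 in the Mnt arrays (-0.26 ± 0.08, limma adjusted p = 0.284). Mitf had a log2 fold change of -0.43 ± 0.15 (95% interval -0.78 to -0.08, limma adjusted p = 0.301), and the control mean lay between those of the other groups. The highest Foxo array, at 6.67, lay just under the lowest Mnt array, at 6.68. Over 19 alternatives its log2 fold change ran from -0.55 to -0.29. Among alternative subunits Vha16-5 was higher in Foxo, against 5.69, 5.87 and 5.89 in the Mnt arrays (0.39 ± 0.15, limma adjusted p = 0.332).

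**Figure D5:**
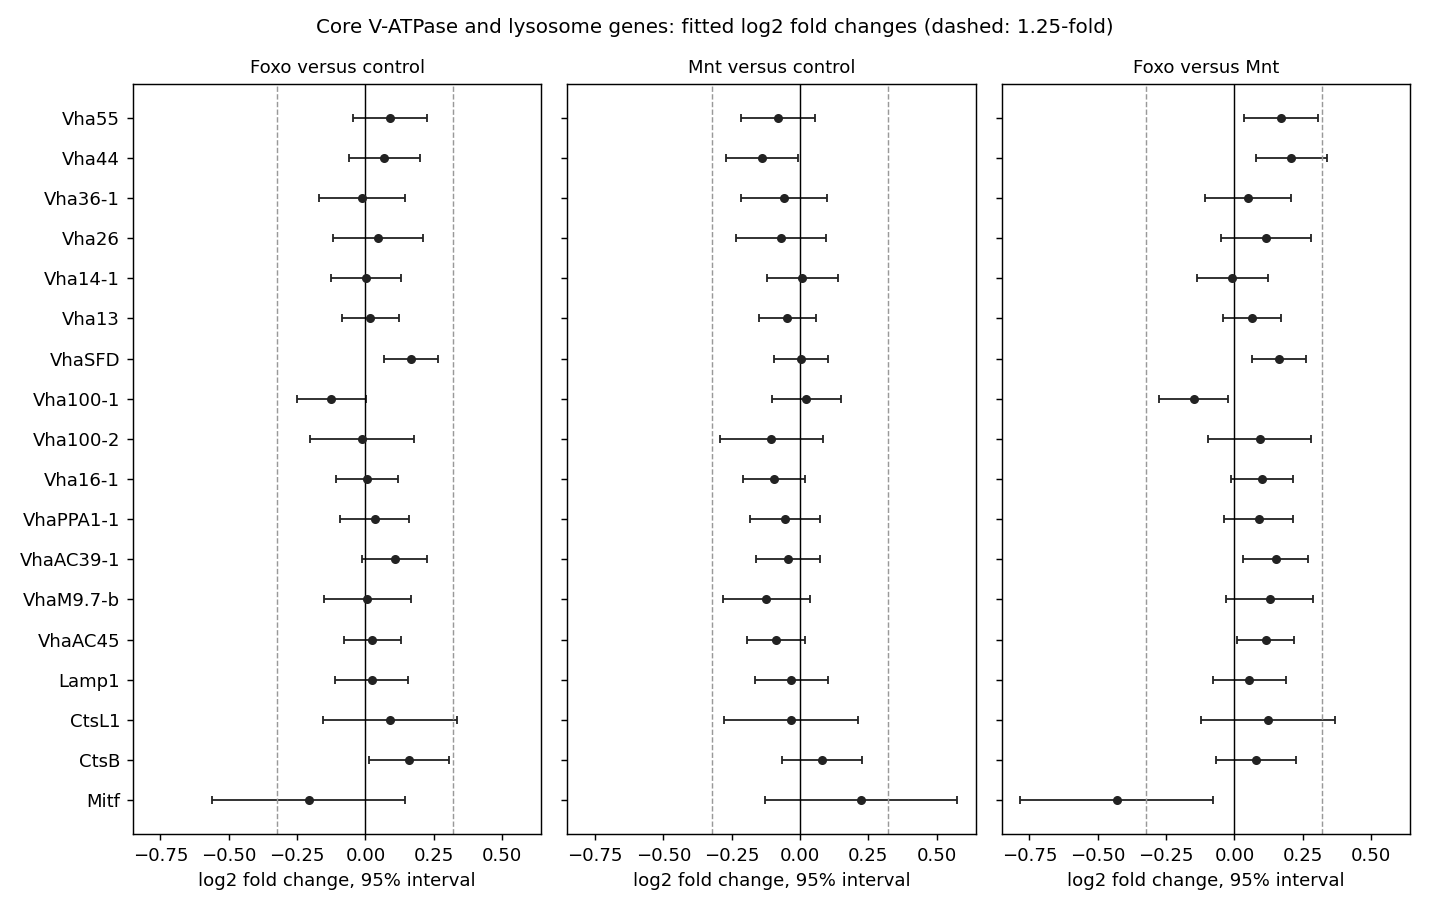
Log2 fold changes of the 14 core subunit genes and the 4 lysosomal genes in the 3 comparisons, with 95% confidence intervals from limma (not adjusted for the number of genes); dashed lines mark 1.25-fold. In these fits of the deposited values, core intervals lie inside the dashed lines in Foxo versus control and Mnt versus control. That of Vha44 crosses a dashed line in Foxo versus Mnt, and Mitf has the widest intervals.

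Vha16-1 is the only member with 2 probe sets that name 1 gene. The brighter one gave log2 differences of 0.00 in Foxo versus control and -0.09 in Mnt versus control, and the other 0.20 and -0.01. They agree in Foxo versus Mnt in sign, at 0.10 and 0.21. The probe sets of 7 members end in _s_at, a class that can detect transcripts of related genes, namely Vha55, Vha44, Vha26, Vha100-1, Vha100-2, VhaAC45 and CtsL1.

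The rest of the lysosomal system was read from 5 further lists with 67 measured genes. In Foxo versus control none of the 67 passed the threshold, and 3 had an unadjusted limma p under 0.05, or 4.48%, below the 17.8% of all genes. The aspartic protease cathepsin D (cathD) lay at 12.35, 12.33 and 12.31 in the Foxo arrays, against 12.20, 12.17 and 12.11 in the controls, and its Mnt values were 12.11, 12.11 and 12.13. Its log2 fold change was 0.17 ± 0.04 (limma adjusted p = 0.255) against control and 0.21 ± 0.04 (adjusted p = 0.147) against Mnt. It had the lowest adjusted p of the 67 genes in the comparison with Mnt. Like CtsB and VhaSFD, it was higher in every Foxo array than in every control, by about the same amount.

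Lamtor5, a subunit of the Ragulator complex that docks TORC1 on lysosomes, lay at 9.47, 9.62 and 9.59 in the Foxo arrays, against 9.80, 9.88 and 9.99 in the controls (log2 fold change -0.32 ± 0.07, limma adjusted p = 0.196). Mon1, part of the activator of Rab7, had -0.22 ± 0.09 (limma adjusted p = 0.279). The 13 trafficking genes around HOPS, Rab2 and Arl8, which deliver cargo to lysosomes, were lower in the Foxo arrays for 12 of 13, with a median of -0.13 against -0.06 over all genes, of which 37.4% were higher. The 21 hydrolases and activators had a median of 0.01 with 12 higher, and the 20 membrane and lipid handling genes -0.07 with 7 higher.

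In Mnt versus control 3 of the 67 had an unadjusted limma p under 0.05, or 4.48% against 3.54% of all genes, and none passed. Rab2, which is needed for delivery to lysosomes in flies, had 0.20 ± 0.06, Lamtor3, another Ragulator subunit, 0.13 ± 0.06, and emp, a scavenger receptor of the CD36 family, -0.17 ± 0.06 (each limma adjusted p = 0.999). The trafficking median was -0.02 and that of the hydrolases -0.04. In Foxo versus Mnt, 6 of the 67 had such a p, or 8.96% against 13.4% of all genes, which were cathD, Lamtor5, Rab2, Vps16B, Vps33B and Npc2a. Except for cathD they were lower in Foxo, with Npc2a, a lysosomal sterol carrier, at -0.28 ± 0.08 (limma adjusted p = 0.252).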

How the data were processed

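The authors deposited log2 signals made with RMA, per the submitters' processing notes, which name no version or probe set definition. The deposited values run from 2.62 to 14.84. RMA normalizes probe intensities to a common distribution, so a shift common to most genes would be largely hidden. Array medians over all probe sets still ran from 5.70 to 5.95. No sequencing depth applies, and 3 arrays per group limit the precision. Of 18952 probe sets, 183 controls were left out. Names come from 13647 probe sets with 1 gene in the platform annotation (402 have several, 4720 are not listed), of which 13544 matched RefSeq (Release 6 plus ISO1 MT) by Entrez identifier.

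limma 3.58.1 in R 4.3.3 (lmFit, eBayes with an intensity trend) was fitted to all 9 arrays with Benjamini-Hochberg adjustment over 11982 genes, two-sided. On simulated data for Foxo versus control it recovered 85% of genes changed by 1 and 95% of those changed by 2 on the log2 scale, with 7 false among 187 calls. The shares were 80% and 88% for Mnt versus control (15 false of 183) and 77% and 93% for Foxo versus Mnt (7 of 177). The simulated noise was independent between genes, unlike shared tissue differences between arrays. Changes as small as those of the core genes were not simulated. Exact permutation of 3 against 3 arrays has 0.1 as its smallest p, so none was used for group differences. The members, lists and tests were chosen with earlier results of these data known. Genes named were all members and, of the other lists, up to 2 highest and 2 lowest with an unadjusted p under 0.05. Marker lists for testis, accessory gland, gut, neurons, sarcomere, Malpighian tubule, fat body and haemocytes were scored as mean log2 signals. Alternatives were a replicate block, only the arrays compared, no trend, array weights, further quantile normalization, centring, a filter on dim genes, other probe set rules, each array left out, the testis score as a covariate and a looser threshold.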

Additional observations from a re-analysis of the deposited data

How the results depend on the processing

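No member passed the threshold in any comparison under any alternative, the lowest adjusted p being 0.112. The 17 member values with an unadjusted limma p under 0.05 kept their direction in all 313 recomputations. They were picked for that p in the same arrays, so a kept direction was likely from the start. The causes of the changes below were not tested. Same-numbered arrays did not deviate together (r from -0.70 to 0.11, 1 of 9 pairs over 0.1), so the replicate numbers are not taken as pairs. With the replicate number as a block, 0 genes passed in Foxo versus control (12 without it), 1 in Foxo versus Mnt (16 without it), and 0 members had an unadjusted p under 0.05 in Mnt versus control (1 without it). Genes passing in Foxo versus control and in Foxo versus Mnt numbered 0 and 0 with only the 6 arrays compared, 4 and 5 with no intensity trend, 28 and 31 after centring, 3 and 6 with the testis score, and 24 and 31 at an adjusted p under 0.1. Without probe sets ending in _s_at or _x_at, 6 passed in Foxo versus control. Leaving out 1 array gave 0 to 13, 0 to 14 and, for Mnt versus control, 0 to 1. Members with an unadjusted p under 0.05 in Foxo versus control numbered 2 without dim genes, 3 with the testis score and 1 to 10 with 1 array left out (1 without Foxo replicate 2, 2 without Foxo replicate 3 or control replicate 3, 10 without Foxo replicate 1). In Mnt versus control they were 0 with no trend, with array weights or without those probe sets, 2 after centring and 0 to 1 with 1 array left out. In Foxo versus Mnt they were 17 with array weights, 6 after centring, without those probe sets or with the testis score, and 3 to 13 with 1 array left out. The shares of all genes with such a p under these settings are not given, so these member counts have no background beside them. After centring, the median of the members and that of the core were -0.0692 and -0.0806 in Foxo versus control, -0.0394 and -0.11 in Mnt versus control, and 0.0538 and 0.0468 in Foxo versus Mnt. The alternative subunit median in Foxo versus control was 0.0662 after centring, 0.0143 without dim genes and 0.047 to 0.30 with 1 array left out. In Foxo versus Mnt it was 0.37 with array weights, -0.0017 without dim genes, 0.0125 with the testis score and 0.10 to 0.36 with 1 array left out. With the testis score, the Foxo versus Mnt medians were 0.0747 for members and 0.0787 for the core. Without dim genes the member median in Mnt versus control was -0.0451. The core median in Mnt versus control was -0.0804 to -0.035 with 1 array left out. The sign changes listed from here on are a selection, so a member not named may also have turned. In Foxo versus control, for instance, CtsL1 (-0.0137), Vha36-3 (-0.0682), VhaAC39-2 (-0.1005) and Vha16-2 (-0.0744) turned after centring. Vha26, Vha16-1 and VhaAC45 did so with the testis score, and Vha14-1, Vha13 and Vha100-2 without Foxo replicate 2. Signs turned after centring in Foxo versus control also for Vha55 (-0.0126), Vha44 (-0.0331), Vha26 (-0.0557), Vha14-1 (-0.10), Vha13 (-0.0843), Vha16-1 (-0.10), VhaPPA1-1 (-0.0692), VhaM9.7-b (-0.10), VhaAC45 (-0.077) and Lamp1 (-0.079), and in Foxo versus Mnt for Lamp1 (-0.0051). With the testis score they turned in Foxo versus control for Vha16-4 (0.10), VhaM9.7-d (-0.0426) and Lamp1 (-0.0533), and in Foxo versus Mnt for Vha68-3 (-0.14). Without Foxo replicate 2 the sign of VhaM9.7-b turned in Foxo versus control (range with 1 array left out -0.0709 to 0.048), and without Foxo replicate 1 that of Vha16-2 in Foxo versus Mnt (-0.1689 to 0.0607).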

Other observations

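ATP6AP2, the prorenin receptor homologue once named VhaM8.9, is an accessory V-ATPase subunit whose present symbol does not begin with Vha. It is described here only as one of the assembly genes, none of which passed the threshold in limma. By the rule of likeness, the Pearson correlation over the 9 arrays with the median of the 35 members, each taken as its deviation from its control mean, the nearest genes outside the list were CG13829 (0.974), CG7907 (0.968), CG12780 (0.953), CG9393 (0.948) and ninaD (0.945). They were picked for this likeness out of all genes, so the values are a description.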
